A study of Mus musculus with 42 samples.

Results

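The regions described here carried acetylation of histone H3 at lysine 27 (H3K27ac) in resting wild-type (WT) macrophages and were found at neither time after lipopolysaccharide (LPS). H3K27ac regions of the 9 WT libraries were merged where they overlapped, which gave 58679 merged regions. Of these, 35204 were found in all 3 WT 0 h libraries and are called resting regions. Among the resting regions, 2237 were found in none of the 3 WT 1 h and 3 WT 18 h libraries and are called lost regions. Another 23883 were found in all 9 WT libraries and are called kept regions. The lost regions were selected on their WT H3K27ac values, which are therefore given as a description and were not tested.

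The series holds 42 chromatin immunoprecipitation sequencing (ChIP-seq) libraries of bone marrow-derived macrophages (BMDMs), which were cultured from bone marrow of C57Bl6/J mice and were either WT or deficient for Nur77 (Nur77-KO, here KO). Nur77, a nuclear receptor, is the product of Nr4a1. Cells were unstimulated (0 h) or received 100 ng/ml LPS, a bacterial cell wall component, for 1 or 18 h. A group, 1 of 6 combinations of genotype and time, had 3 H3K27ac libraries, 3 RNA polymerase II (Pol II) libraries and 1 input library. The mice were males of 6 to 12 weeks, and the marrow cells were differentiated for 7 days in medium with 15% L929-conditioned medium. The KO is a whole-body deletion made by crossing mice with loxP-flanked Nur77 to mice that express Cre from the human CMV promoter, and the WT mice were littermates. For KO samples the genotype label gives only the word cre, whereas the methods describe KO animals without Cre, and any part of Cre in a difference between genotypes was not tested. The 3 libraries of a group are described as biological replicates without naming an animal, so p-values measure the spread between these libraries.

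H3K27ac is deposited by the acetyltransferases p300 and CBP at active promoters and enhancers and is removed by histone deacetylases. Enhancers lie away from gene starts, are bound by lineage factors such as PU.1, C/EBP, RUNX and AP-1 family members in macrophages, and contact the promoters that they activate. LPS is sensed by Toll-like receptor 4 and activates NF-kB, AP-1 and interferon regulatory factors, which raise acetylation at inflammatory enhancers while a part of the resting enhancers loses it.

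All levels below are normalized tags, the deposited number of sequenced fragments in a region per 10 M (M, mega) fragments of the library. A level of 0 means that no region passed the authors' search in that library, not that no fragment lay there. The H3K27ac libraries held 13.5 to 55.4 M tags, with 21.4 to 23.1 in WT at 0 h, 13.5 to 20.9 in WT at 1 h, 15.0 to 31.1 in WT at 18 h and 23.6 to 55.4 in KO. The Pol II libraries held 21.7 to 36.1 M tags. A deeper library can show weaker regions, and the WT 1 h libraries were the shallowest on average, with a mean of 16.1 M tags. A part of the loss that sits near the detection limit therefore cannot be told apart from depth. With regions of every library held to a common density floor of 14.5 tags per kb, 1363 regions met the same rule and 1003 of them overlapped the 2237. Acetylation near 10 macrophage marker genes summed to 7760 to 8370 in WT and 7860 to 8310 in KO libraries at 0 h, with no marker listed at 0. It was 6520 to 6930 in WT and 6490 to 7480 in KO at 1 h, and 8590 to 8850 and 6020 to 7930 at 18 h. Near 6 erythroid and megakaryocyte markers it went from 669 to 768 at 0 h to 132 to 144 at 18 h in WT, and from 613 to 643 to 75.9 to 199 in KO. Most of that sum came from few genes, as the median gene stood at 2.72 in WT at 0 h. Gata1 and Hba-a1 were at 0 in every H3K27ac library. No lost region was nearest to those 6 genes. Near 12 granulocyte markers in WT acetylation was 141 to 158, 174 to 179 and 83.6 to 109 at 0, 1 and 18 h. In KO it was 242 to 262, 128 to 194 and 79.9 to 145. Near 8 mast cell and basophil markers in WT it was 11.9 to 23.3 at 0 h and 0 at both later times. Near 7 B cell markers it was higher at 18 h in WT, at 336 to 384 against 270 to 294. The part of such cells in the results was not tested. Pol II over Nr4a1 was 189, 188 and 208 in WT and 87.8, 76.1 and 70.2 in KO at 0 h, and 25.5, 23.0 and 30.4 in WT and 33.5, 39.0 and 36.6 in KO at 1 h. The sources used here do not say which part of the gene was removed, so these values do not check the deletion.

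Most of the lost regions were weak before LPS. Their mean WT 0 h level had a median of 15.8, with quartiles of 11.3 and 24.8 and extremes of 6.18 and 264. The median was 77.7 over all resting regions and 150 over the kept regions. Lost regions were also short, with a median length of 1297 bp against 2682 bp for all resting regions. Just outside the rule lay 1260 regions found in all 3 WT 0 h libraries and in 1 of the 6 LPS libraries, with a median resting level of 18.3 and a median of 8.59 in that 1 LPS library. A further 1447 regions were found in 2 of the 3 WT 0 h libraries and no LPS library, with a median of 5.87. For comparison at like resting strength, the 1692 kept regions with a resting level at or under 24.8 are called weak kept regions. As they were weak at rest but found in every WT LPS library, this choice favours regions that gain acetylation after LPS.

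Genome sequence of 6 lost regions is shown because the results below turn on them: a strong distant region near Lpin1, a strong region in a Map2k5 intron nearest Skor1, single regions near Arhgap18 and in Tlr4, a region of a group of 8 near Rasa1, and a region of the immunoglobulin heavy-chain locus that KO cells lacked. Each is the central 250 bases of the region on the plus strand of mm10, read from the reference genome, at chr12:16526188-16526437, chr9:63246294-63246543, chr10:26725251-26725500, chr4:66894639-66894888, chr13:85394450-85394699 and chr12:115119337-115119586 in that order. Capitals mark matches, on either strand, to the motif letters given in the next paragraph.
Lpin1 region: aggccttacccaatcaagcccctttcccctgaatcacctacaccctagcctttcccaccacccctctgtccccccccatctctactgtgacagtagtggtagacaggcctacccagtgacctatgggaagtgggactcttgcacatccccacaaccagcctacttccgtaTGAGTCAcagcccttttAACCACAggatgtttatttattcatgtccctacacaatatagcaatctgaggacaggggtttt
Skor1 region: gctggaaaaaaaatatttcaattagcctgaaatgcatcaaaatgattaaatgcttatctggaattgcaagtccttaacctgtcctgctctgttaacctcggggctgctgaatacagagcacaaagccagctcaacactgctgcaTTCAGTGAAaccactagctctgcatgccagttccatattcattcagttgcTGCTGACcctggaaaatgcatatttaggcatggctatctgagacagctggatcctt
Arhgap18 region: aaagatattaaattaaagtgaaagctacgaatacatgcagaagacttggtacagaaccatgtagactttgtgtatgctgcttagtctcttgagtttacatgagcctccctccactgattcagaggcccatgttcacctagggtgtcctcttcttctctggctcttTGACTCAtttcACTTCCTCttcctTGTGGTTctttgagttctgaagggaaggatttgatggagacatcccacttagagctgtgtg
Tlr4 region: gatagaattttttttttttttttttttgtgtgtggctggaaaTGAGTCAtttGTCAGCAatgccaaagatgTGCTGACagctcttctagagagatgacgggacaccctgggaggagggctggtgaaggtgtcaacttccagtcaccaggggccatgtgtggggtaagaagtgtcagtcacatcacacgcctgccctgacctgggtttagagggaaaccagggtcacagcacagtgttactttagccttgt
Rasa1 region: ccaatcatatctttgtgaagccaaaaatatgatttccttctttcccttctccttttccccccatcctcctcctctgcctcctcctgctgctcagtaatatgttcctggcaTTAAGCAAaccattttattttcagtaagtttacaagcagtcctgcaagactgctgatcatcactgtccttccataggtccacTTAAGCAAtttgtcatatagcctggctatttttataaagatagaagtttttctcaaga
Heavy-chain region: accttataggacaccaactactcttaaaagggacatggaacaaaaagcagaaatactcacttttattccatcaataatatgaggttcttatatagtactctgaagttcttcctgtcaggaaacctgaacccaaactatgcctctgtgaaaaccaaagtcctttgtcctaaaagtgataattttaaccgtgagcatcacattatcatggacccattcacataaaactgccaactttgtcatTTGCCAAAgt
The Lpin1 window holds an AP-1 and a RUNX match, and the Skor1 window a STAT and a MAF half-site match. The Arhgap18 window holds AP-1, PU.1 and RUNX matches within a short stretch, and the Tlr4 window an AP-1 match followed by 2 MAF half-sites. The Rasa1 window has 2 C/EBP matches and the heavy-chain window 1.

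Motif letters were searched on both strands in the central 500 bases of the 2235 lost regions and 35184 resting regions with sequence, and a match is a description of letters only. The PU.1 letters GAGGAAGT, the site of the ETS factor that defines the myeloid lineage, stood in 12.1% of lost regions against 8.23% of resting regions. The AP-1 letters TGAGTCA, bound by Fos and Jun dimers, stood in 19.4% against 14.8%. The RUNX letters AACCACA stood in 15.2% against 12.4%, the MAF half-site TGCTGAC in 11.1% against 8.64% and the C/EBP letters TTGCNNAA in 22.6% against 20.6%. The IRF letters, GAAA and GAAA separated by 2 bases and bound by interferon regulatory factors, were in 6.89% of lost regions against 8.54% of resting regions and 16.3% of weak kept regions. The NF-kB letters, GGG and TTCC separated by 3 bases, were in 6.26% against 7.19% and 9.88%. In weak kept regions the PU.1 share was 7.22% and the AP-1 share 16.4%. The NBRE letters AAAGGTCA, to which Nur77 binds as a monomer, were in 3.45% of lost and 2.55% of resting regions. The E-box TCACGTG, STAT letters TTCNNNGAA and CTCF letters (CCA, AG and GGC separated by 2 bases each) were searched as well, and the STAT share was 15.2% against 14.2%. An AP-1 match on the minus strand can share its first letters TGAC with the end of a MAF half-site, and such a stretch was counted for both motifs. PU.1, AP-1, RUNX and MAF letters were thus more frequent, and IRF and NF-kB letters less frequent, in the lost regions than among resting regions at large, without a test.

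Lost regions lay away from gene starts. Only 48 (2.15%) had their centre within 1000 bp of the start of a protein-coding gene, against 19.2% of resting regions and 7.62% of weak kept regions. Introns held 1018 (45.5%), the space between genes 1089 (48.7%), untranslated exons 48 and coding exons 34. The space between genes held 33.0% of resting regions. The median distance to the nearest gene start was 42145 bp for lost, 17766 bp for resting and 22814 bp for weak kept regions, and 610 lost regions (27.3%) lay over 100 kb away. A central window with 10 or more CpG dinucleotides was found in 260 (11.6%) of the lost and in 29.7% of the resting regions. Some lost regions lay beside regions that were found after LPS. Within 1000 bp of 161 of them (7.2%) a WT region was found after LPS, and the median gap to such a region was 8779 bp. Within 10 kb of another lost region lay 290 (13.0%), and within 50 kb 766 (34.2%). Resting regions, of which there are many more, lay within those distances of another resting region in 64.8% and 93.6%.

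The strongest lost region had its centre in an untranslated exon of Cask, 51419 bp from the start of Nyx, at chrX:13515008-13520050. Its resting levels were 265, 266 and 259 in WT and 292, 286 and 312 in KO. In KO cells it was at 0, 39.7 and 34.2 after 1 h and at 0 in all 3 libraries after 18 h (limma adjusted p = 0.0017 and 0.00013). The KO 0 h libraries did not overlap the KO LPS libraries, and a remnant was found at 1 h in 2 of 3. Another strong region lay in an intron of Hpgd, which encodes the enzyme that inactivates prostaglandins, at chr8:56312664-56316073. It stood at 174, 186 and 171 in WT and at 173, 169 and 144 in KO before LPS. KO levels were 5.67, 31.0 and 40.6 after 1 h and 0 after 18 h (adjusted p = 0.0021 and 7.1e-05).

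The region near Lpin1, a phosphatidate phosphatase gene, at chr12:16524490-16528136, is the one whose centre is printed above. It lay 84653 bp from the gene start and had resting levels of 177, 171 and 153 in WT and 135, 138 and 139 in KO. It fell to 0, 19.1 and 23.6 in KO after 1 h and to 0 after 18 h (adjusted p = 0.0013 and 0.00012). In an intron of Cers4, a ceramide synthase gene, at chr8:4520581-4525811, WT levels of 165, 156 and 166 and KO levels of 142, 144 and 140 at 0 h were followed in KO by 0, 7.85 and 5.26 at 1 h and 0 at 18 h (adjusted p = 4e-05 and 8.6e-06). The region nearest Skor1, at chr9:63244703-63248136 in an intron of the kinase gene Map2k5, was higher in KO than in WT at rest, at 168, 176 and 165 against 102, 129 and 123. It was at 0 in all 6 KO LPS libraries (adjusted p = 1.8e-05 and 2.2e-06). All 3 were at 0 in every KO 18 h library, and of the 3 the Skor1 region was also at 0 in every KO 1 h library.

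Regions near Trib2, Gabbr2 and Nrg2 were still found in 2 of 3 KO libraries at 1 h. The region nearest Trib2, a pseudokinase gene, was at 107, 89.8 and 85.1 in KO at 0 h and at 0, 57.9 and 60.1 at 1 h (adjusted p = 0.12). That nearest Gabbr2, which encodes a GABA receptor subunit, was at 102, 109 and 98.0 and then at 0, 66.0 and 60.6 (adjusted p = 0.11). That nearest Nrg2, a neuregulin gene, was at 105, 89.8 and 98.5 and then at 0, 102 and 76.4 (adjusted p = 0.28). In each of them KO 1 h replicate 1 held no region while replicates 2 and 3 did, and all 3 were at 0 in KO at 18 h (adjusted p = 0.0033, 0.0031 and 0.0069). All 12 of the strongest lost regions were at 0 in every KO 18 h library.

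**Figure D1:**
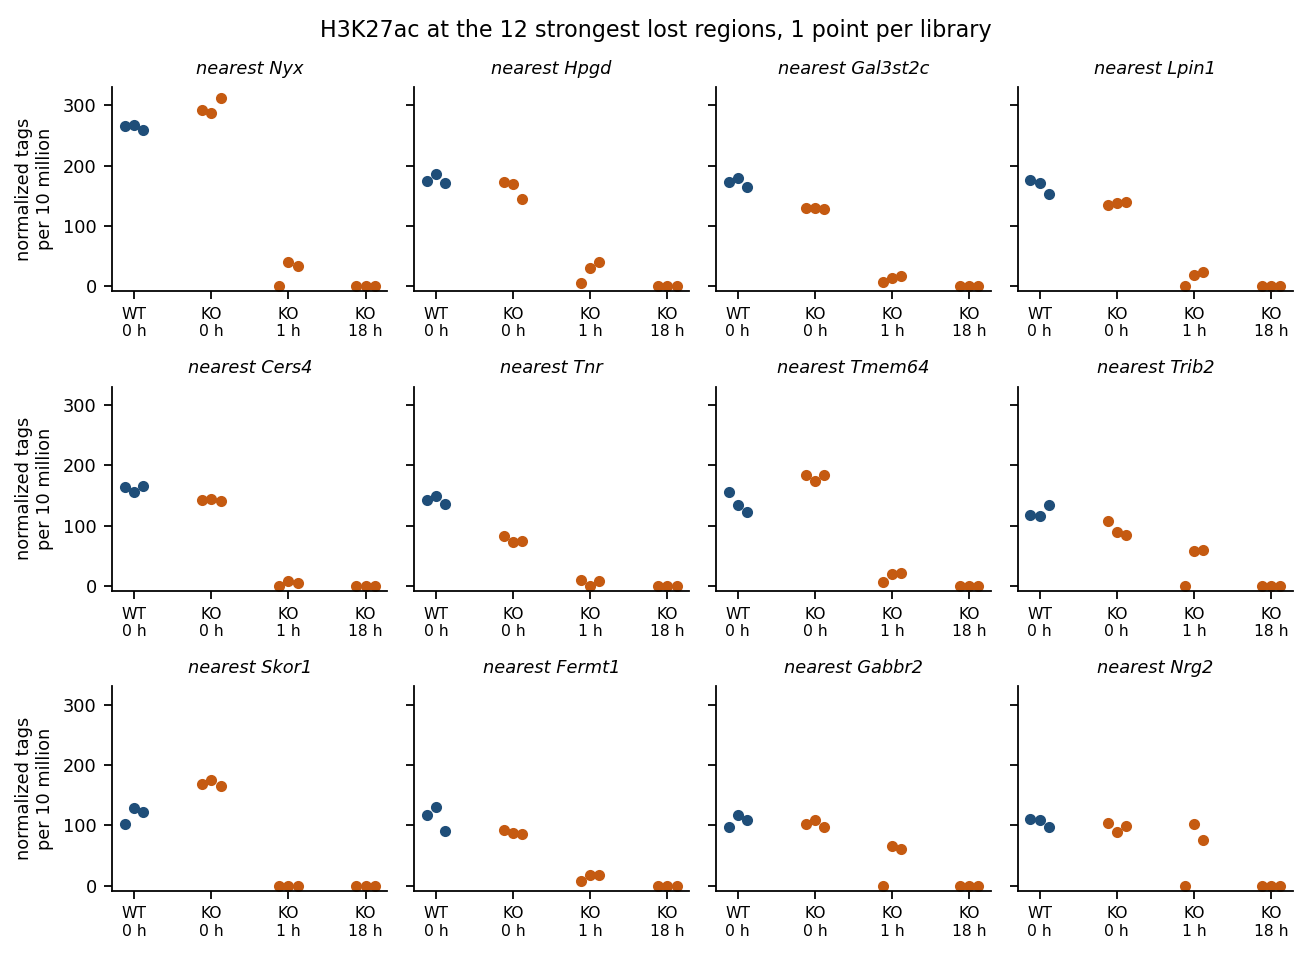
H3K27ac level in normalized tags per 10 M at the 12 lost regions with the highest mean WT 0 h level, 1 point for each of 3 libraries per group, titled by nearest gene; blue is WT and orange is KO. Every KO 18 h point lies at 0, and at Trib2, Gabbr2 and Nrg2 the KO 1 h points split into 1 at 0 and 2 between 57.9 and 102.

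KO macrophages carried most of the lost regions at rest, 22.1 to 47.4% of them at 1 h and 3.08 to 16.6% at 18 h. At 0 h, 1943 of the 2237 (86.9%) were found in all 3 KO libraries and 53 (2.37%) in none. These shares were 97.5% and 0.494% for resting regions and 95.3% and 0.709% for weak kept regions. The mean level over the 2237 was 21.9, 21.1 and 19.8 in the WT 0 h libraries and 20.3, 20.9 and 20.9 in the KO 0 h libraries. It was 2.09, 6.41 and 7.84 in the KO 1 h libraries and 2.01, 0.487 and 0.28 in the KO 18 h libraries. The 0 h libraries of both genotypes lay together and above all KO LPS libraries. Because the rule set WT to 0 after LPS, a higher KO level at those times is in part fixed by the choice of regions and is not read as a difference between genotypes. In bulk cultures, fewer cells that carry the mark and less of it in each cell cannot be told apart.

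After 1 h of LPS, 953 lost regions (42.6%) were in no KO library, and after 18 h 1796 (80.3%) were in none. Of all resting regions, 4.74% were in no KO 1 h library and 11.3% in no KO 18 h library. At neither time were 878 (39.2%) found in KO, against 3.41% of resting regions and 0.121% of kept regions. A further 918 were found in a KO library at 1 h and in none at 18 h, 75 in one at 18 h and in none at 1 h, and 366 at both times. In all 3 KO 1 h libraries were 236 (10.5%), in all 3 KO 18 h libraries 29 (1.3%) and in all 6 11 (0.492%), against 82.0%, 75.9% and 71.5% of resting regions. At 1 h the KO libraries differed among themselves, with 494, 808 and 1061 lost regions found in replicates 1, 2 and 3. At 18 h replicate 1 held 371, and 293 lost regions were found at that time in it alone. Replicates 1, 2 and 3 held 23.8, 23.6 and 47.5 M tags at 1 h and 55.4, 31.3 and 33.4 M at 18 h. The part of depth in these differences was not tested. Without replicate 1 at both times, a comparison added after the data were seen, 1083 lost regions (48.4%) were in no KO LPS library. In that comparison 760 (34.0%) were in both remaining KO 1 h libraries and 41 (1.83%) in both remaining KO 18 h libraries. The shares of resting regions were 4.97%, 87.3% and 78.6% in that order. At each time after LPS the KO libraries were deeper than the WT libraries, and under the common floor 753 of 1363 such regions were in no KO LPS library.

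The weak kept regions give the values of regions of like resting strength in the same KO libraries, although they were chosen for being found in WT after LPS. That choice favours regions that gain acetylation. KO 0 h libraries covered at least 50% of the length of 989 to 1067 of the 1692, and KO 18 h libraries of 1349 to 1476. Weak kept regions were found in 97.4 to 98.3% at 0 h, in 98.2, 87.8 and 94.0% at 1 h and in at least 94.1% at 18 h. Lost regions were found in 91.6, 93.5 and 94.2% at 0 h, in 22.1, 36.1 and 47.4% at 1 h and in 16.6, 5.36 and 3.08% at 18 h.

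**Figure D2:**
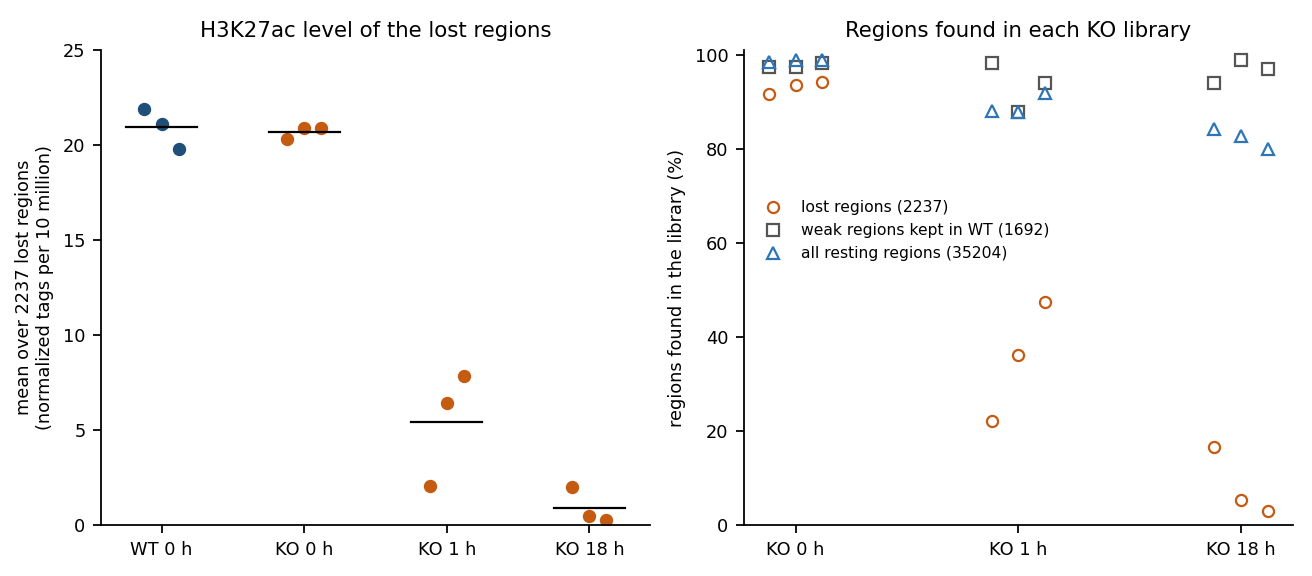
Left, mean H3K27ac level over the 2237 lost regions in normalized tags per 10 M, 1 point per library with the group mean as a line. Right, percentage of lost, weak kept and all resting regions found in each KO library, where lost regions fall from above 91% at 0 h to 22.1 to 47.4% at 1 h and below 17% at 18 h while both other sets stay near or above 80%.

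The KO change was tested with limma across 54252 regions on the 9 KO H3K27ac libraries, none of which the selection had used. Of the 2237 lost regions, 2193 had a value in at least 1 KO library and were tested, most of them through the 0 h group, which by itself favours a fall. At 1 h, 1361 (62.1%) were called lower and 0 higher, where 19.9% of all tested regions were called lower and 11.3% higher. The 0 rests on replicate 1, since 104 were called higher at 1 h without replicate 1 of every group and 113 without KO replicate 1 at 1 h and 18 h, a setting chosen after seeing the data. In those fits 21.1% and 23.3% of all tested regions were called higher. At 18 h, 1761 (80.3%) were called lower and 0 higher, where 29.9% of all regions were called lower and 15.2% higher. At an unadjusted p under 0.05, 1621 and 1935 passed in limma at 1 and 18 h in either direction. The median change on the log2(normalized tags + 10) scale was -0.98 at 1 h and -1.29 at 18 h. Both times were called for 1348 lost regions, 18 h alone for 413 and 1 h alone for 13. Held to the common floor, 688 (42.7%) and 860 (53.3%) of 1613 tested were called lower, against 16.5% and 26.7% of all regions tested under it.

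Lost regions that were stronger in resting WT cells were more often still found in KO at 1 h. In 4 groups of 558 to 560 lost regions ordered by WT 0 h level, with medians of 9.4, 13.2, 19.5 and 34.9, the share in no KO LPS library was 54.3, 46.2, 33.9 and 22.5%. The share in all 3 KO 1 h libraries was 5.18, 7.14, 11.5 and 18.4%. The share in no KO 18 h library was 82.0, 81.8, 78.9 and 78.5%, a much narrower range. The mean KO level went from 9.13 at 0 h to 2.57 at 1 h in the weakest group and from 40.6 to 10 in the strongest. It fell in the middle groups as well. A stronger region can fall as steeply and still pass the search, so the shares do not show that stronger regions resisted the loss. Resistance to loss was not tested. Among the 433 lost regions with an AP-1 match, 30.7% were in no KO LPS library and 70.7% in no KO 18 h library, against 41.3% and 82.6% of the 1804 without one. Of the 77 with an NBRE match, 44.2% were in no KO LPS library. These shares are descriptions over regions of the same libraries.

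**Figure D3:**
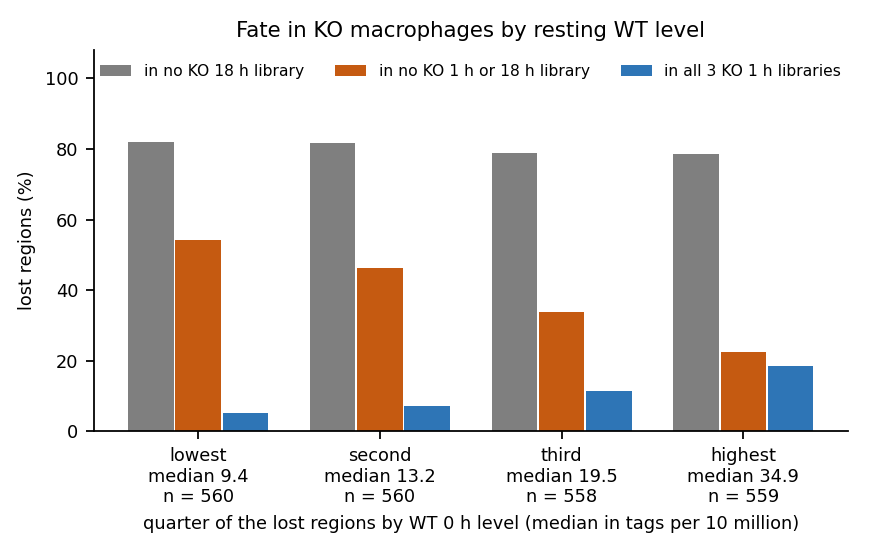
Percentage of lost regions in no KO 18 h library, in no KO 1 h or 18 h library and in all 3 KO 1 h libraries, in 4 groups of like size by mean WT 0 h H3K27ac (median in normalized tags per 10 M and number of regions under each). Grey bars stay between 78.5 and 82.0% while orange bars fall from 54.3 to 22.5%.

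The few lost regions that KO cells kept are shown by the regions nearest Lrp2bp, Asah1 and Macf1. In an intron of Ufsp2, 3493 bp from the start of Lrp2bp, at chr8:45995191-45996429, resting levels were 6.84, 14.5 and 11.7 in WT and 129, 122 and 124 in KO. KO levels were 33.0, 90.4 and 78.8 at 1 h and 111, 88.1 and 82.5 at 18 h (adjusted p = 0.052 and 0.33). All KO libraries were thus above all resting WT libraries there. In an intron of Pcm1 nearest Asah1, the acid ceramidase gene, at chr8:41319644-41321267, WT resting levels of 13.0, 22.3 and 19.4 stood beside resting KO levels of 36.8, 31.5 and 31.4, followed by 27, 29.9 and 31.5 after 1 h and 19.7, 27.5 and 23.5 after 18 h (adjusted p = 0.61 and 0.11). In an intron of the cytoskeletal linker gene Macf1, KO levels of 17.7, 14.1 and 15.1 at 0 h were followed by 8.40, 24.5 and 25.6 and by 36.2, 9.26 and 7.03. These regions were chosen because every KO library held them, so their missed thresholds do not show that KO levels stayed the same.

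Across the 2237, all 3 KO 0 h libraries lay above all 3 WT 0 h libraries at 322 (14.4%) and below them at 424 (19.0%). Over the 35204 resting regions it was 7392 (21%) and 6573 (18.7%).

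Of the 48 lost regions at gene starts, the strongest lay at the start of Klrb1a, a natural killer cell lectin receptor gene, at chr6:128622116-128624785. It was at 52.7, 54.2 and 51.7 in WT and at 102, 106 and 100 in KO at 0 h. KO levels were 17.0, 18.5 and 13.3 at 1 h and 0 at 18 h (adjusted p = 6.8e-05 and 4e-06). The region at the start of F2rl3, which encodes the thrombin receptor PAR4, at chr8:72760691-72762720, was at 39.5, 47.3 and 56.4 in WT and 51.2, 54.4 and 64.6 in KO at 0 h. The start of Ptgs1, the constitutive cyclooxygenase gene, at chr2:36229715-36231252, had 37.3, 28.1 and 42.6 in WT and 39.4, 33.9 and 34.0 in KO. Both were at 0 in all 6 KO LPS libraries (adjusted p at 1 h = 2.6e-05 and 3e-05). At the start of Sox4, a developmental transcription factor gene, WT levels were 50.1, 37.2 and 47.9, and KO levels went from 45.9, 59.9 and 63.1 to 6.09, 22.9 and 29.5 at 1 h (adjusted p = 0.046) and 10.9, 0 and 0 at 18 h (adjusted p = 0.0016). Pol II at the Sox4 start was 29.5, 31.3 and 32.2 in WT at 0 h and 0 in every WT LPS library (adjusted p = 8.9e-12 at 1 h).

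A dense group of lost regions lay on chromosome 12 among the variable segments of the immunoglobulin heavy chain (Igh), which B cells recombine to build antibodies. Between 113572927 and 116010093 on chromosome 12, where the annotation lists 185 variable segment genes and pseudogenes, 21 of 34 resting regions were lost regions. Their mean WT 0 h levels ran from 9.34 to 64.0. KO cells lacked many of them before any LPS. Of the 21, 11 were in no KO 0 h library and 9 in all 3, and these 11 are 20.8% of the 53 lost regions that no KO 0 h library held anywhere. In order along the chromosome, the second to the tenth were all at 0 in KO, a run of 9 neighbours. The region at chr12:115157410-115159215 had a mean of 56.9 in WT and 0 in every KO library at 0 h. That at chr12:115118364-115120561, printed above, had 52.7 and 0, and that at chr12:115789001-115791412 had 47.7 and 0. By contrast the region at chr12:115998986-116000998 was at 64.0 in WT and 62.7 in KO.

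The mean over the 21 was 27.6 to 29.8 in WT 0 h, 13.5 to 14 in KO 0 h, 0.89 to 4.57 in KO 1 h and 0 to 0.89 in KO 18 h libraries. The WT 0 h, KO 0 h and KO LPS libraries did not overlap, but the 21 were chosen as found in all 3 WT 0 h libraries. That choice by itself favours a higher level in WT than in KO at 0 h. Elsewhere in the genome, lost regions in no KO 0 h library had a median WT level of 12.1 and at most 44.6. Of the 11 regions absent from KO, 6 overlapped a region of at least 1 KO input library and 3 of all 3. Among the 13 other resting regions of the locus, 4 were in no KO 0 h library. Of 7 B cell marker genes, 5, among them Cd79a, Ebf1, Pax5 and Vpreb3, were listed at 0 in all WT 0 h H3K27ac libraries. Cd79b and Ms4a1 were not, and in KO at 0 h Vpreb3 was not either, with 4 at 0. The summed level near all 7 B cell markers at 0 h was 270 to 294 in WT and 182 to 251 in KO, against 7760 to 8370 near macrophage markers in WT. An inherited difference at this locus between the KO and WT mice cannot be told apart from an effect of the Nur77 deletion. The nearest protein-coding gene was Zfp386 for 19 of the 21, at 47732 to 1056592 bp, so the name marks a place only.

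**Figure D4:**
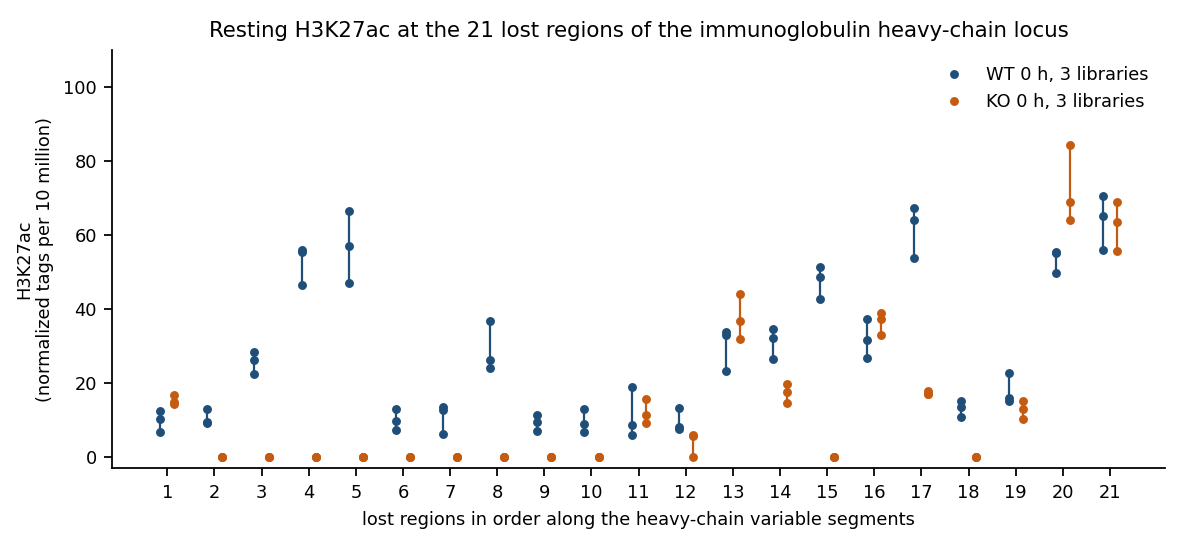
H3K27ac in normalized tags per 10 M at the 21 lost regions of the heavy-chain locus, numbered in order along chromosome 12, with 3 WT 0 h libraries (blue) and 3 KO 0 h libraries (orange) joined by a line from lowest to highest. The KO points of regions 2 to 10, 15 and 18 lie at 0, and those of region 21 overlap the WT points.

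Few of the lost regions carried Pol II in all 3 WT 0 h libraries, and most of those few held no Pol II region in WT 1 h after LPS. Their choice by resting Pol II by itself favours such a fall. Pol II is recruited to active enhancers as well as genes, so a Pol II region there can be enhancer transcription or the body of a host gene. All 3 WT 0 h Pol II libraries had a region at 327 lost regions (14.6%), against 67.4% of resting regions and 36.2% of weak kept regions, and no library of the 18 had one at 1302 (58.2%). The share with Pol II in all 3 WT 0 h libraries was 35.4% at gene starts (17 of 48), 17.3% in introns and 9.55% between genes. Of the 327, 217 (66.4%) had no Pol II region in any WT 1 h library and 171 (52.3%) in no WT 18 h library. Pol II was in no WT LPS library at 152 (46.5%), against 7.67% of the 23742 resting regions with Pol II at rest. Where found in WT at 0 h, Pol II at lost regions had a median of 9.41 to 11.3. The weakest Pol II regions of those libraries had 4.22 to 4.6. Weak Pol II drops out of the search more easily, and the shares compared were not matched for strength. Pol II was in all 3 WT 1 h libraries at 71 (21.7%) and in all 3 WT 18 h libraries at 111 (33.9%), so loss of acetylation was not always accompanied by loss of Pol II. In KO, 269 of the 327 (82.3%) had Pol II in all 3 libraries at 0 h. For KO and for single times, shares of the resting regions with Pol II at rest were not computed. Of the 2237, at least 1 WT Pol II library held 32.0% at 0 h, 6.84% at 1 h and 10.5% at 18 h. Of all resting regions it was 79.7%, 57.8% and 68.7%.

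Averaged over the 2237, Pol II was 4.38 to 5.40 in WT 0 h, 2.25 to 2.35 in WT 1 h and 2.40 to 2.54 in WT 18 h libraries. In KO it was 5.72 to 5.92, 2.34 to 2.40 and 2.15 to 2.25. The 0 h libraries lay above all LPS libraries in both genotypes. Pol II was found in at least 1 of 18 libraries at 935 lost regions, 715 of which had it in a WT 0 h library, which by itself favours a fall. Of the 935, limma called 360 (38.5%) lower and 34 higher at 1 h in WT, where 42.8% of the 43332 tested regions were called lower and 18.5% higher. At 18 h it called 308 (32.9%) lower and 29 higher, against 24.2% and 25.6%. In KO, 413 (44.2%) were lower and 37 higher at 1 h, against 39.3% and 20.9%, and 405 (43.3%) were lower and 27 higher at 18 h, against 30.0% and 23.9%. The lower share at 1 h in WT was below the background. With each library centred on its median, 228 were lower and 118 higher in WT at 1 h, against 32.6% and 30.2% of all tested regions.

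Single regions followed different courses. At chr19:37442902-37444396, near Hhex, a homeobox factor gene, Pol II was 138, 153 and 147 at 0 h, 0 in all 3 libraries at 1 h and 33.2, 31.6 and 42.2 at 18 h in WT (adjusted p = 8.8e-12 and 1.9e-07). Near Arrdc3, an arrestin-domain gene, at chr13:80896877-80900453, it was 226, 270 and 267 at 0 h, 0 at 1 h and 380, 371 and 374 at 18 h (adjusted p = 1.9e-14 and 0.00089). Pol II returned there above its resting level while H3K27ac, at 52.7, 55.5 and 43.5 at rest, was found at neither time. Nearest Rab3gap1, in an intron of Zranb3 at chr1:127970792-127972859, Pol II of 135, 117 and 145 was followed by 0 at both times (adjusted p = 6.8e-14 and 1.4e-13).

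Pol II rose at a few lost regions inside genes. In an intron of Mthfs, an enzyme gene of folate metabolism, at chr9:89234625-89238268, it went from 7.61, 143 and 16.1 to 976, 935 and 849 at 1 h and 417, 294 and 301 at 18 h (adjusted p = 1.5e-06 and 0.00013). Within Clic4, a chloride channel gene, at chr4:135219398-135220684 in an intron, it went from 70.1, 83.7 and 82.8 to 501, 498 and 508 at 1 h (adjusted p = 2.4e-14) and was 72.2, 72.0 and 72.7 at 18 h. Within Gramd1b, a cholesterol transfer protein gene, in an intron at chr9:40511204-40513635, it went from 17.4, 7.94 and 11.6 to 139, 138 and 143 at 1 h (adjusted p = 4.3e-09) and 0 at 18 h. Pol II rose in these introns while no WT LPS library held an H3K27ac region there.

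The difference between genotypes in the Pol II change was tested as an interaction. The change was lower in KO at 50 lost regions and higher at 13 at 1 h, where 2.41% and 5.67% of all tested regions passed. At 18 h it was lower at 64 and higher at 13, against 5.41% and 3.7%. At the Klrb1a start, for example, Pol II was 12.4, 13.8 and 21.2 in KO and 0 in all 3 WT libraries at 0 h, and 0 in every LPS library of both genotypes, so the difference in change is one of the resting level.

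The lost regions were nearest to 1679 protein-coding genes, of which 1318 were nearest to a single lost region, 240 to 2 and 121 to 3 or more. Nearness does not show which gene a region acts on. For 1245 (74.2%) a kept region was nearest too, against 88.3% of the 12898 genes nearest a resting region. For 884 (52.7%) a kept region lay within 1000 bp of the gene start, against 72.5%. A group of 259 (15.4%) lost every resting region that was nearest to them. Of the 14 genes with 5 or more lost regions, Zfp386, beside the heavy-chain locus, had 19, Rasa1 had 8 and 4930452B06Rik had 6, and among those with 5 were Itga8, Sulf2, Prex1, Smad7 and Mical2.

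Per 10 M tags, Pol II over genes was called lower after 1 h of LPS for most genes measured, and in a larger share of the genes nearest a lost region. The level over a gene covers the gene and 500 bp on either side, and the whole-table median change was -0.71 at 1 h in WT among genes with a value in every library. Of 1335 tested genes nearest a lost region, 963 (72.1%) were called lower and 187 (14%) higher at 1 h in WT, where 64.5% and 17.5% of 14004 genes were. With each library centred on its median, the counts at 1 h were 654 lower and 418 higher, against 36.2% and 40.1% of all genes. At 18 h, 650 (48.7%) were lower and 271 (20.3%) higher, against 31.6% in each direction. The medians were -1.09 and -0.34 on the log2(normalized tags + 10) scale. In KO, 903 (67.6%) were lower at 1 h and 749 (56.1%) at 18 h, against 58.8% and 40.2%. Genes that had a resting but no lost region nearest were called lower in 64.8% at 1 h and 30.2% at 18 h. Among 104 tested genes with 3 or more lost regions, 90 (86.5%) were lower at 1 h, with a median of -1.99, and 71 (68.3%) at 18 h, with a median of -0.83. Among 786 genes that contain the centre of a lost region, 616 (78.4%) were lower at 1 h. By distance of the nearest lost region, 74.3% were lower and 7.86% higher within 10 kb, 73.7% and 13.2% from 10 to 50 kb, and 69.0% and 18.5% beyond 50 kb at 1 h in WT. In KO the lower shares at 1 h were 75.7%, 69.4% and 60.8%, and differences by distance were not tested. The Pol II change differed between genotypes, by the interaction, for 46 genes with a lower and 265 with a higher change in KO at 1 h, against 3.96% and 13.3% of all genes, and for 178 and 55 at 18 h, against 9.46% and 4.65%.

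**Figure D5:**
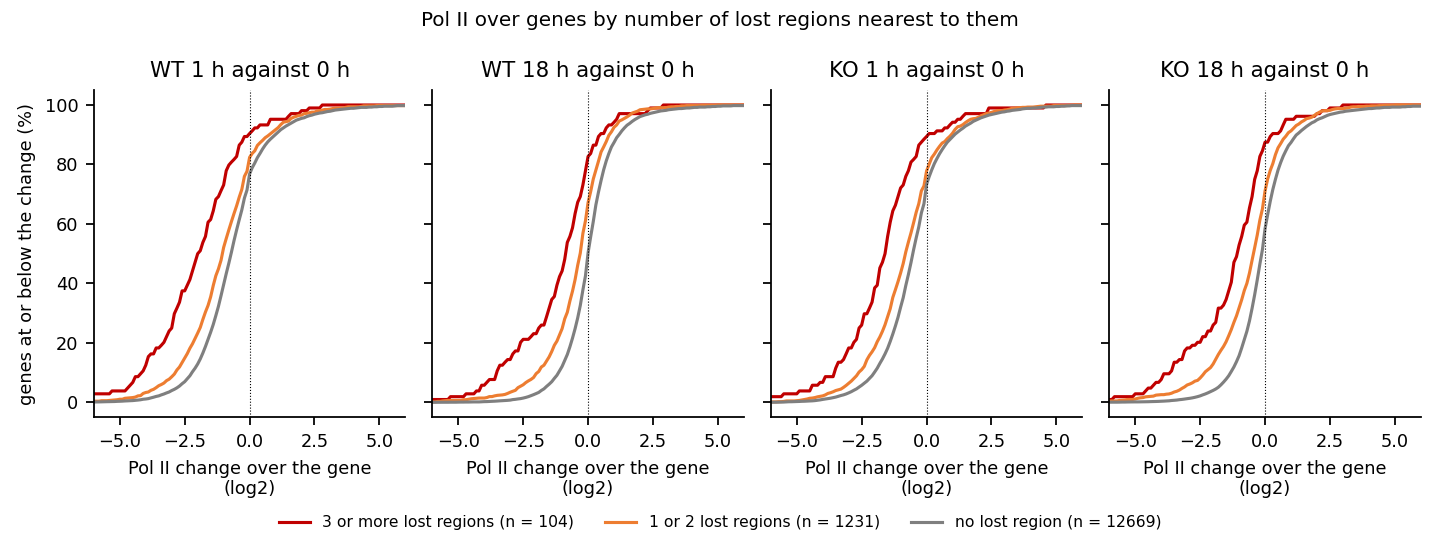
Cumulative percentage of genes at or below each Pol II change (log2 of normalized tags + 10) over the gene, by whether 3 or more, 1 or 2 or no lost region was nearest, for each genotype and time against 0 h. In all 4 panels the red curve (104 genes) lies to the left of the grey curve at a change of 0.

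Pol II over several genes with 5 or more lost regions fell strongly. Hs6st1, a heparan sulfate sulfotransferase gene with lost regions of 16.1 to 62.8, went from 382, 487 and 454 at 0 h to 18.2, 19.3 and 12.5 at 1 h and 49.8, 40.2 and 36.0 at 18 h in WT (-4.08 ± 0.16 (SE) and -3.12 ± 0.16, adjusted p = 1.6e-13 and 1.3e-11), although over its start alone the 18 h change was 0.34. Ninj2, an adhesion protein gene, went from 1355, 1566 and 1582 to 69.6, 64.2 and 79.0 and then to 520, 480 and 469 (adjusted p = 2.5e-17 and 2.8e-11). Its level at 1 h was 172, 176 and 183 in KO, and the change differed by 1.44 between genotypes (adjusted p = 8.1e-07).

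A weakly transcribed gene was among them as well. Itga8, an integrin gene, was at 37.1, 65.9 and 60.4 and then at 0 in every WT and KO LPS library (adjusted p = 3.4e-11 and 7.3e-11 in WT). Smad7, an inhibitor of TGF-beta signalling, went from 191, 219 and 195 to 28.9, 26.7 and 32.9 and to 50.3, 41.4 and 55.8 (adjusted p = 4e-12 and 3.6e-10), although over its start alone the 18 h change was 0.33. Over both whole genes every WT 0 h library lay above every LPS library.

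The largest Pol II changes included both directions. Zranb3, which encodes a DNA repair helicase, went from 4311, 4389 and 4855 to 15.1, 21.2 and 18.5 at 1 h and to 92.2, 100.3 and 87.8 at 18 h (-7.33 ± 0.11 and -5.45 ± 0.11, adjusted p = 6.8e-19 and 3.1e-17). Hivep1, a zinc finger factor gene with 1 lost region 44309 bp away, rose from 69.0, 76.2 and 98.1 to 4632, 4324 and 4478 and then to 912, 1075 and 726 (5.63 ± 0.13 and 3.32 ± 0.13, adjusted p = 1e-16 and 2.6e-13). Loss of a nearby region thus stood beside gain of Pol II at this gene.

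Small GTPase regulators, which switch Ras family signalling on or off and so shape adhesion and movement, were nearest to 282 resting regions, of which 27 (9.57%) were lost regions, shared by 12 genes. Of all resting regions 6.35% were lost regions, and no list was tested against that share. Pol II over the 12 genes fell for 10 and rose for 2 at 1 h in WT, and fell for 10 and rose for 1 at 18 h, beside the 72.1% and 48.7% lower among all genes nearest a lost region. Rasa1, a GTPase-activating protein that turns Ras off, had 8 lost regions of 10.8 to 52.8 between 105445 and 239245 bp upstream of its start, 7 of them in no KO LPS library. Pol II over Rasa1 went from 4275, 5173 and 5278 to 213, 132 and 201 after 1 h and 680, 913 and 740 after 18 h in WT (log2 change -4.70 ± 0.15 (SE) and -2.65 ± 0.15, adjusted p = 9.5e-15 and 5.2e-11). Arhgap18, a GTPase-activating protein gene, had 3 lost regions, the strongest 1348 bp from its start. Its Pol II was 1787, 2177 and 2211 at 0 h, listed at 0 in all 3 WT libraries at 1 h and 320, 345 and 321 at 18 h (adjusted p = 9.3e-19 and 1.8e-12). In KO it was 40.4, 54.7 and 60.3 at 1 h, and the change differed between genotypes by 2.72 ± 0.16 (adjusted p = 2.4e-08).

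Rasgrp3, a Ras and Rap activator with 3 lost regions, went from 1382, 1632 and 1645 at 0 h to 0 in all 3 WT libraries at 1 h and 6.2, 6.8 and 0 at 18 h (adjusted p = 1.3e-15 and 7.4e-15). Prex1, a Rac activator with 5 lost regions, moved the other way, from 762, 1096 and 903 to 2511, 2354 and 2437 and to 4327, 4268 and 4354 (1.41 ± 0.10 and 2.23 ± 0.10, adjusted p = 7.4e-10 and 2.7e-12). A gene with several lost regions could therefore gain Pol II. At the start of Prex1 alone the 18 h change had the opposite sign, at -0.21.

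Macrophage lineage factors held 15 lost regions among 237 resting regions (6.33%), close to the 6.35% of all resting regions, and these were nearest 7 genes. Pol II over all 7 fell at 1 h in WT, and 6 fell and 1 rose at 18 h. Among all genes nearest a lost region 72.1% and 48.7% fell at these times. Of the 17 tested genes of the whole list, 10 fell and 7 rose at 1 h, and 8 fell and 9 rose at 18 h. Mef2c, a MADS-box factor with 3 lost regions 175408 to 519835 bp upstream, went from 4292, 4982 and 5037 to 224, 216 and 198 at 1 h and to 377, 393 and 392 at 18 h (-4.42 ± 0.10 and -3.59 ± 0.10, adjusted p = 1.4e-16 and 5.6e-15). In KO it fell less at 1 h, by a difference of 1.18 (adjusted p = 4.7e-05), and more at 18 h, by -1.05 (adjusted p = 0.00012). Irf8, a lineage factor of monocytes, went from 2114, 2414 and 2349 to 1195, 1167 and 1282 at 1 h in WT and to 534, 509 and 485 in KO (difference -1.21, adjusted p = 1.6e-07). Runx1, with 2 lost regions upstream, went from 6281, 7266 and 7419 to 3945, 3752 and 3838 and then 2347, 2562 and 2480 (adjusted p = 2.9e-09 and 2.8e-12), but over its start alone the 18 h change was 0.79. The other genes were Maf, Cebpa, Klf4 and Mef2a, with changes at 1 h of -1.61, -1.82, -2.02 and -1.18, and over the start of Mef2a alone the 18 h change was 0.05. Klf4 was the gene that rose at 18 h, by 0.25 (adjusted p = 0.05 after rounding), a call that most alternatives lost, and over its start alone the change at 1 h was 0.01.

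Phagocytic and scavenger receptor genes held 7 lost regions among 66 (10.6%), nearest 5 genes, of which 4 fell and 1 rose at both times in WT, beside the same 72.1% and 48.7% lower. Of the 21 tested genes of the list, 17 fell and 4 rose at 1 h, and 12 fell and 7 rose at 18 h. Mrc1, the mannose receptor gene, had 1 lost region of 18.3, 14.7 and 14.3 upstream of its start. Pol II over Mrc1 went from 5072, 5749 and 5809 to 1449, 1312 and 1438 at 1 h and to 106, 114 and 103 at 18 h in WT (-1.98 and -5.56, adjusted p = 2.3e-14 and 8.8e-20), and its fall at 1 h was smaller in KO by 1.09 (adjusted p = 1.1e-06). Cd163, the haemoglobin scavenger receptor gene, went from 446, 502 and 552 to 0, 0 and 6.3 and then to 0. Gas6, a bridging ligand for engulfment of dead cells, went from 577, 669 and 663 to 5.9, 0 and 0 and then to 112, 131 and 79.0 (adjusted p = 1.9e-14 and 4.4e-09), and over its start alone the 18 h change was 0.27. Msr1, a scavenger receptor gene, rose from 3646, 4424 and 4386 to 12156, 11384 and 11586 at 1 h (1.5 ± 0.06, adjusted p = 3.6e-13) although its lost region, at 60.7, 52.9 and 38.8 at rest, was found in no WT LPS library.

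Pattern recognition receptors held 5 lost regions among 67 (7.46%), nearest Tlr4, Tlr5 and Tlr2. Over the 18 tested genes of the list, Pol II fell for 4 and rose for 11 at 1 h in WT. At 18 h it fell for 7 and rose for 9. Pol II over Tlr4, the LPS receptor gene, went from 1622, 1982 and 1918 to 452, 432 and 418 and then to 1018, 988 and 999 (-2.05 ± 0.07 and -0.87 ± 0.07, adjusted p = 1.3e-14 and 3.8e-09). Its lost intronic region, printed above, was at 18.1, 20.5 and 17.5 in WT and 9.0, 7.79 and 13.2 in KO at rest, and at 0 in all 6 KO LPS libraries (adjusted p = 0.00054 and 0.00027). Tlr5, the flagellin receptor gene with 2 lost regions, was at 16.6, 17.7 and 17.3 and then at 0 in every WT and KO LPS library (adjusted p = 4.5e-09 and 9.4e-09 in WT). Tlr2, a lipoprotein receptor gene, rose by 2.64 at 1 h and fell by 0.28 at 18 h (adjusted p = 5.8e-14 and 0.018), and over its start alone the 18 h change was 0.43.

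Phosphoinositide and calcium signalling genes had 8 of 176 (4.55%), nearest 6 genes, of which Pol II fell at 4 and rose at 2 at 1 h and fell at 2 and rose at 3 at 18 h in WT. Over the 26 tested genes of the list, 16 fell and 7 rose at 1 h and 10 fell and 13 rose at 18 h, beside 64.5% and 31.6% lower among all genes. Prkcb, a protein kinase C gene, went from 720, 1139 and 1144 to 118, 83.7 and 134 at 1 h and to 1996, 2468 and 2087 at 18 h (adjusted p = 2.7e-11 and 1.6e-05), but over its start alone the 18 h change was -0.29. Growth factor and cytokine receptor genes had 3 of 139 (2.16%), cell cycle genes 3 of 75 (4.0%) nearest Ccnd1 and Cdk6, and cholesterol efflux genes 1 of 50, nearest Lpl. Ccnd1, the cyclin D1 gene, went from 1319, 1342 and 1436 to 123, 94.3 and 99.1 at 1 h and 480, 359 and 468 at 18 h (adjusted p = 7.7e-15 and 7.9e-10), while Cdk6, the gene of its partner kinase, rose by 1.24 at 1 h and fell by 1.87 at 18 h (adjusted p = 3.4e-12 and 2.5e-14). The LPS-induced cytokine and feedback genes had 0 of 57 and the alternative activation genes 0 of 43. Of markers of other cell types, the lists of B cell, T and NK cell, dendritic cell and erythroid or megakaryocyte genes had 0 lost regions of 2, 9, 8 and 6 resting regions. Granulocyte markers had 1 of 11, nearest Retnlg, mast cell and basophil markers 2 of 6, nearest Cma1 and Kit, and stromal markers 2 of 11, nearest Cxcl12. Near their own gene starts, 8 of 12 granulocyte, 7 of 8 mast cell and basophil and 8 of 8 stromal markers had no H3K27ac in any WT 0 h library.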

How the data were processed

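ChIP-seq libraries for H3K27ac, Pol II and input came from WT and Nur77-KO BMDMs at 0, 1 and 18 h of LPS. Per the authors, reads were trimmed (Skewer), aligned to mm10 (HISAT2 2.1.0) and cleared of duplicates. They called regions in each library with HOMER (no version given in the sources used here) and without input, per the file headers from 500 bp windows at a Poisson p of 0.001, stitched under 1000 bp. The deposited signal is normalized tags per 10 M tags (M, mega), and whole tags were not recoverable, so no count test was run. A region not found was set to 0. A region reaching past a merged region was shared out by overlapped length.

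Regions were merged with bedtools 2.31.1, and sequence was read with pysam 0.24.0 from the reference genome of the same build. Gene positions came from 21897 protein-coding genes of GENCODE vM21, without 54 whose symbols occur more than once. limma 3.58.1 in R 4.3.3 was run with an intensity trend on log2(normalized tags + 10), which understates changes of low values, with Benjamini-Hochberg adjustment over the whole table and calls at adjusted p under 0.05. KO H3K27ac was fitted on 9 libraries and Pol II on 18, and features above 0 in at least 1 library were tested. The code was tested on simulated data. Named regions and genes were the 12 strongest, those with the largest changes, those held by every KO library, those at gene starts, genes nearest 3 or more lost regions and listed genes. The lost regions, rule and gene lists were chosen with earlier results of these data known. Pol II antibody catalogue numbers differ between the label and the methods. Alternatives changed the merging, overlap, common floor (1st percentile of density in the library where that is highest), pseudocount (2), filter, centring, fold limit, replicates and gene window. Results for a few genes are not reported here.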

Additional observations from a re-analysis of the deposited data

Results flagged for a closer look

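The Pol II change after LPS differed between KO and WT by the limma interaction at the lost regions and genes given here, and every value is the KO change minus the WT change on the log2(normalized tags + 10) scale. Among lost regions the count was 50 lower and 13 higher in KO at 1 h and 64 lower and 13 higher at 18 h. Among nearest genes it was 46 lower and 265 higher at 1 h and 178 lower and 55 higher at 18 h. Genes of the whole table passed in 3.96% (lower) and 13.3% (higher) at 1 h and in 9.46% and 4.65% at 18 h, so the shift from higher at 1 h to lower at 18 h was also that of the whole table.

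At regions where Pol II was listed at 0 in all LPS libraries of both genotypes the value is the same at both times and reflects the 0 h level. It was -0.54 near Gal3st2c, 1.19 near Tnr, -0.53 near Fermt1, -1.78 near Myh15, -1.35 near Klrb1a and 2.92 near Msh5. At Msh5, WT 0 h Pol II was 204, 237 and 357 and KO 0 h Pol II 18.7, 12.6 and 58.2. At 18 h alone it was -0.62 near Arrdc3, -1.37 near Lrp2bp and 0.36 near Clic4.

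Over genes at 1 h the difference was positive, so that Pol II was relatively higher in KO after LPS, at Arhgap18 (2.72), Arhgef10l (0.64), Camk1d (0.69), Ccnd1 (0.50), Cdk6 (0.34), Chst11 (0.62), Fam198b (1.28), Fam78b (0.86), Gas6 (0.92), Mef2c (1.18), Mrc1 (1.09), Msr1 (0.48), Ninj2 (1.44), Pik3r1 (0.34), Prkcb (0.78), Rgs10 (0.69), Tgfbr2 (0.69), Tlr2 (0.64) and Tlr4 (0.37). It was negative at Irf8 (-1.21), Lpl (-0.49), Mx1 (-0.91), Prex1 (-0.57) and Sulf2 (-0.77).

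At 18 h it was negative at Arhgap18 (-0.51), Arhgap6 (-0.80), Arsb (-0.54), Chst11 (-0.62), Dgkd (-0.64), Dock2 (-0.43), Fam78b (-0.69), Inpp4a (-1.32), Lpl (-0.72), Mef2c (-1.05), Mmp9 (-0.91), Mrc1 (-0.49), Ninj2 (-0.87), Rgs10 (-0.49), Rgs18 (-0.65), Runx1 (-0.51), S1pr1 (-1.65), Stab2 (-1.39) and Zranb3 (-0.46). It was positive at Ccnd1 (0.61), Diaph2 (0.53), Hdgfl3 (0.41), Spats2l (0.62) and Tlr2 (0.81). S1pr1, a lipid receptor gene of cell movement, stood at 51.0, 48.8 and 39.5 in WT and at 9.8, 13.1 and 0 in KO at 18 h. The rule for single deviating samples needs groups of at least 4 and was not applied to these groups of 3.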

How the results depend on the processing

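The number of lost regions depended on the selection. The common floor gave 1363, regions free of input overlap 974, and leaving out 1 replicate of every group 2877 to 4020. In no KO LPS library were 426 of those free of input overlap and 1180 to 1755 without 1 replicate. Pol II in all WT 0 h libraries was found at 129 without input overlap, at 173 where a region had to cover 50% and at 535 to 801 without 1 replicate. Input overlap removes regions, so all counts fall with it: 622 and 767 lower in KO H3K27ac at 1 and 18 h, 158 and 138 lower in WT Pol II, and 182 and 179 lower in KO Pol II. The common floor gave 688 and 860 in KO H3K27ac, and leaving out 1 replicate gave 906 to 1456 at 1 h, the lowest without replicate 2, and 1364 to 1945 at 18 h. Without KO replicate 1 at 1 h and 18 h, chosen after seeing the data, 1464 and 1903 were lower. A fold limit of 1 on the log2 scale left 171 and 135 in WT Pol II, 208 and 192 in KO Pol II and 351 nearest genes at 18 h. Centring gave 228 lower in WT Pol II at 1 h, and a window at the gene start gave 557 and 260 genes, the cause of which was not tested. Of the counts recomputed under the alternatives (lost regions, those in no KO LPS library, those with Pol II in all WT 0 h libraries, and lower calls for KO H3K27ac, Pol II at regions and WT Pol II over nearest genes), the others stayed within 1.5 times the reported value. Lost regions in all KO 1 h libraries went from 236 to 760, and in all KO 18 h libraries from 29 to 41, without KO replicate 1. Higher calls also moved by over 1.5 times. At lost regions, in the order WT Pol II at 1 and 18 h and KO Pol II at 1 and 18 h, they became 10, 8, 8 and 8 without input overlap and 18, 11, 18 and 12 with the fold limit. Centring gave 118 (WT, 1 h), and leaving out replicate 1 gave 18 (WT) and 17 (KO) at 18 h. Nearest genes went from 187 and 271 to 107 and 98 with the fold limit and 79 and 143 at the gene start, and at 1 h to 418 with centring. KO H3K27ac at 1 h went from 0 to 104 without replicate 1 and to 113 without KO replicate 1 at 1 h and 18 h, and to at most 7 otherwise.

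Replicate numbers did not pair the libraries, since same-numbered libraries correlated at -0.36 to 0.01 (KO H3K27ac), -0.07 to 0.08 (Pol II at regions) and -0.07 to 0.11 (Pol II over genes). With the replicate block the counts were 1290 and 1705 (KO H3K27ac), 355 and 304 (WT Pol II), 412 and 404 (KO Pol II) and 963 and 654 (nearest genes).

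Of the values of single named regions and genes, 2407 kept direction and side of the threshold, 134 lost their call, 34 gained one and 22 turned direction. With centring, the 1 h change became 0.38 over Gpr141 and 0.66 over Lpl. Over the gene start alone it became -0.41 for Atp11a, 0.01 for Klf4, -0.25 for Plcl2, -0.33 for Tgfbr2 and 0.06 for Zfp386. At 18 h over the gene start it became 0.50 for Arhgef6, 0.07 for Arsb, 0.06 for Dgkd, 0.30 for Dock2, 0.27 for Gas6, 0.34 for Hs6st1, 0.05 for Mef2a, -0.05 for Plcl2, -0.21 for Prex1, -0.29 for Prkcb, 0.79 for Runx1, 0.33 for Smad7, 0.14 for Tgfbr2, 0.43 for Tlr2 and 0.18 for Zfp386. The cause was not tested. Depth limits mainly the weak regions, whose absence after LPS means only that no window passed the search.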
